A study of Mus musculus with 16 samples.

Results

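A set of 10 genes of the immune checkpoint system was followed through BRAF inhibitor treatment of mouse melanoma: the receptor genes Pdcd1, Ctla4, Lag3, Havcr2 and Tigit, and the ligand genes Cd274, Pdcd1lg2, Cd80, Cd86 and Lgals9. The members were chosen by name, and the gene names in the array files matched them to 13 probes, with 2 probes each for Pdcd1lg2, Cd80 and Cd86. A total of 8 of the 10 genes had a probe bright enough to be tested, among 21985 genes tested on the array. Total RNA of 16 melanoma biopsies was hybridised in Cy5 (red) against Universal Mouse Reference RNA in Cy3 (green) on 2-colour Agilent arrays. The 4 groups hold 4 tumours each: untreated control tumours, tumours treated for 4 days, tumours treated for 60 days, and tumours labelled resistant after 120 days of treatment. The series title names BRAF inhibitors as the treatment. The drug, dose, mouse strain, genotype, age and tumour model are not given in the sources used here, nor is whether tumours came from separate animals, so p-values measure the spread between these samples. Titles carry codes of unstated meaning, with 1 series of codes for the 4-day tumours and another for the rest. Within that other series the untreated, 60-day and resistant tumours share no leading code number. A difference in source linked to the codes and a difference in treatment therefore cannot be told apart in any comparison.

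Checkpoint receptors sit on T cells and NK cells and damp their activation when they meet a ligand. The receptor PD-1, encoded by Pdcd1, binds the ligands encoded by Cd274 (PD-L1) and Pdcd1lg2 (PD-L2), while CTLA-4 competes with the activating receptor CD28 for the ligands encoded by Cd80 and Cd86. Galectin-9, encoded by Lgals9, is one of the ligands described for TIM-3, the product of Havcr2, and interferon-gamma is a known inducer of both PD-L1 and galectin-9. In a tumour the ligands are carried by myeloid cells and by tumour cells. The comparisons ask how the transcripts of this system stood during early and prolonged treatment and in tumours that had become resistant.

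No checkpoint gene passed an adjusted p of 0.05 in any of the 6 comparisons between groups. Transcripts of Lgals9, Pdcd1 and Cd86 had the smallest p-values. In the main limma fit their means were 1.46- to 1.54-fold lower in the 4-day and in the 60-day tumours than in untreated tumours. The size depended on the processing, and the 4-day and 60-day Pdcd1 differences were larger with the processed signals of Feature Extraction, as given below. Lgals9 came nearest to the threshold, at an adjusted p of 0.127 after 4 days and 0.0863 after 60 days (limma, Benjamini-Hochberg over all genes). In resistant tumours Cd274, Cd80 and Havcr2 had means 1.02- to 1.19-fold above the untreated mean, each difference smaller than its error. All values are log2 ratios of tumour over reference, and differences are log2 differences ± standard error from limma over 4 arrays against 4. A ratio compares 1 gene between tumours, and levels of different probes are not compared. In these whole biopsies, fewer cells of a type and less RNA per cell cannot be told apart.

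Signals above background covered 50.5% to 55.6% of spots in Cy5, and pairs of arrays correlated between 0.578 and 0.966 across genes. Resistant replicate 1 stood apart, with a median correlation of 0.698 with the other arrays, against 0.836 to 0.916 for the other 15. The melanocyte genes Mitf and Tyr were above background on 16 and 15 arrays, the keratinocyte gene Krt14, the fibroblast gene Col1a1 and the endothelial gene Pecam1 on 16 arrays each. The T cell genes Cd3e and Cd4 and the regulatory T cell gene Foxp3 were above background on 16 arrays, but Cd8a on 4 and the NK cell gene Ncr1 on 1. The macrophage genes Csf1r and Cd68 and the dendritic cell gene Itgax were above background on all 16. The arrays lay on 2 slides, with replicates 1 and 2 of each group on slide 2 and replicates 3 and 4 on slide 1, so within-slide differences are given where they matter. Replicate numbers are names and pair no samples.

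Cd274 encodes PD-L1, and its probe (chromosome 19, 29462363 to 29462422 on build mm9, plus strand) was above background on all 16 arrays. Its log2 ratios in replicates 1 to 4 were -0.23, -0.52, 1.11 and -0.39 in untreated tumours and -0.58, 0.24, -0.65 and -0.39 after 4 days. They were -0.44, 0.39, -0.12 and 0.08 after 60 days and 0.04, -0.14, 0.67 and -0.47 in resistant tumours. Every group mixed high and low tumours, and the single highest value came from untreated replicate 3. The group means in ascending order were -0.35 ± 0.41 after 4 days, -0.02 ± 0.35 after 60 days, -0.01 ± 0.75 in untreated and 0.03 ± 0.48 in resistant tumours (SD, n = 4), and no neighbours in that order differed beyond their spread. The difference of 4-day from untreated tumours was -0.34 ± 0.34 (adjusted p = 0.713, limma) and became 0.03 without untreated replicate 3. Its sign differed between the slides, at -0.88 on slide 1 and 0.20 on slide 2. Resistant tumours differed from 4-day tumours by 0.37 ± 0.34, with a 95% interval from -0.36 to 1.10 (adjusted p = 0.866, limma).

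Pdcd1lg2 encodes PD-L2, which in tissue is carried mainly by dendritic cells and macrophages. Its probes (chromosome 19, 29545470 to 29545529 and 29545473 to 29545532, mm9, plus strand) cover almost the same stretch, share 57 bases and differ at 2 of them, so they are no independent measurements. The last 28 bases of the shared stretch, from the array files, are shown because both differences (in capitals) lie in them.
Pdcd1lg2 probe 1: gaagcatttaagcaacacgtCaagtGcc
Pdcd1lg2 probe 2: gaagcatttaagcaacacgtTaagtAcc

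The brighter Pdcd1lg2 probe was above background on all 4 untreated arrays, 1 array after 4 days, 1 after 60 days and 2 in resistant tumours. Its log2 ratios in replicates 1 to 4 were 0.03, -0.09, 1.46 and 0.02 in untreated tumours and -0.25, -0.23, -0.27 and -0.14 after 4 days. They were -0.35, 0.21, -0.36 and -0.06 after 60 days and -0.30, -0.40, 0.61 and -0.17 in resistant tumours. The 4-day values all lay below the untreated ones, while the other 2 groups overlapped them. The differences from untreated were -0.58 ± 0.30 after 4 days, -0.50 ± 0.30 after 60 days and -0.42 ± 0.30 in resistant tumours (adjusted p = 0.358, 0.403 and 0.72, limma). Without untreated replicate 3 these 3 differences were -0.21, -0.13 and -0.05, so 1 tumour carried most of each. With the processed signals of Feature Extraction the 4-day difference was -1.06, and in the deposited table it was -1.05. On the only 4-day array where this probe was above background, replicate 1, its Cy3 reference signal was also high (7.96 on the log2 scale against a median of 6.77), and the second probe was not above background there. The second probe gave group means of 0.50 ± 0.79 untreated, -0.46 ± 0.14 after 4 days, -0.21 ± 0.36 after 60 days and 0.03 ± 0.61 resistant (SD, n = 4). Since most treated values were not above background, they bound the level from above and do not measure it.

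**Figure D1:**
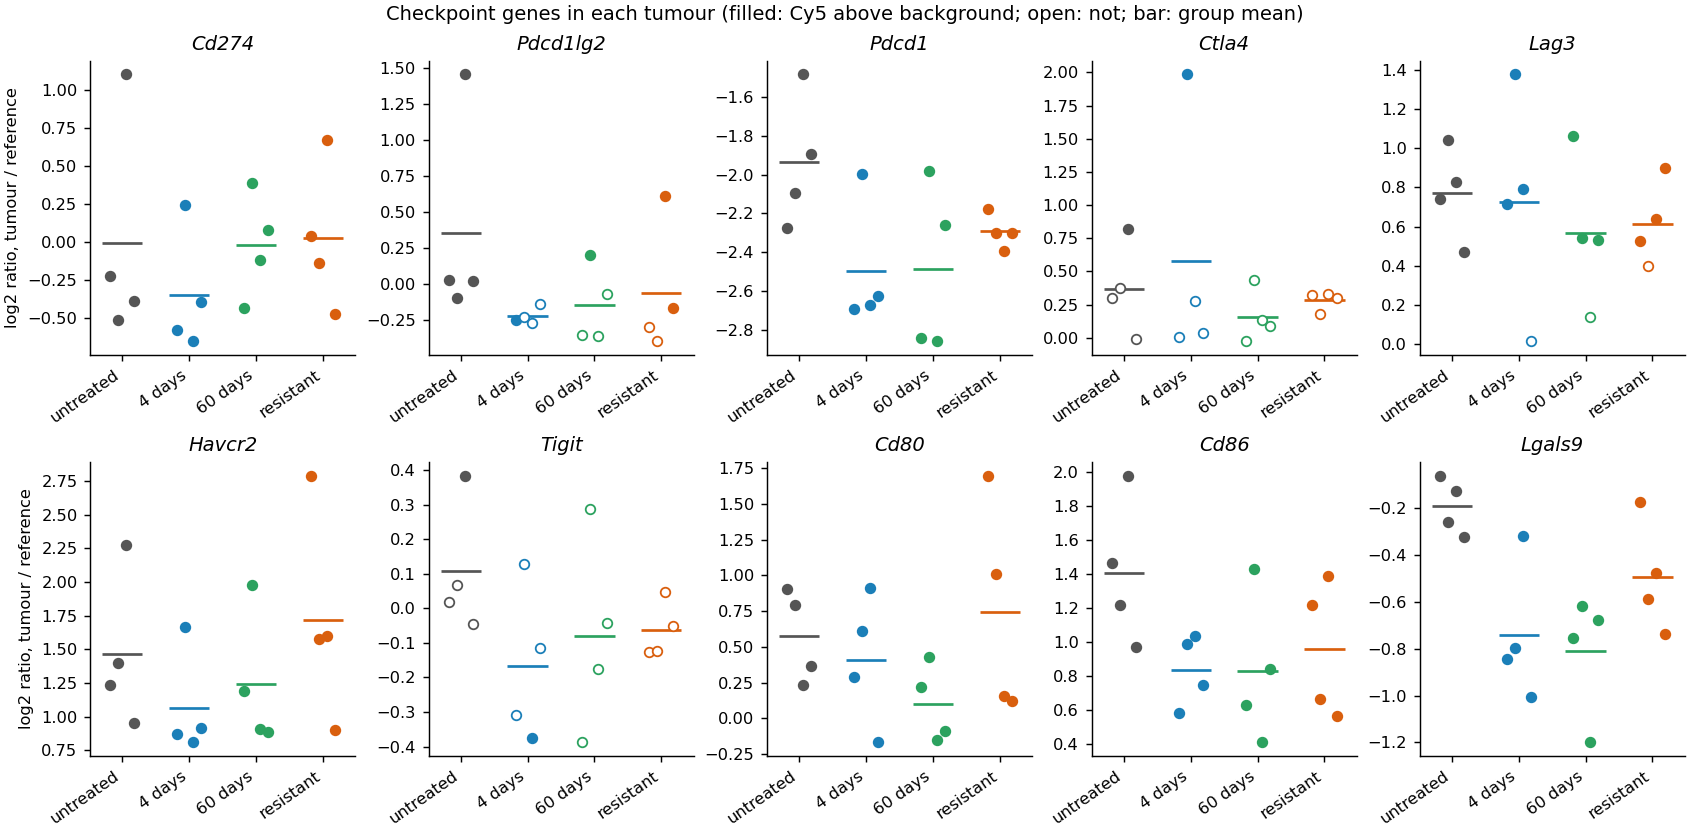
Each panel plots the log2 ratio of tumour over reference (vertical axis) of 1 checkpoint gene in 4 groups of 4 tumours (horizontal axis), with filled points above background in Cy5, open points not, and bars at group means. Untreated replicate 3 is the highest untreated tumour for Cd274 (1.11), Pdcd1lg2 (1.46), Pdcd1, Ctla4, Havcr2, Tigit and Cd86, and the Ctla4 and Tigit panels hold only 2 filled points each.

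Pdcd1 encodes PD-1, the receptor for both ligands above, and was above background on all 16 arrays (chromosome 1, 95935064 to 95935123, mm9, minus strand). Its log2 ratios in replicates 1 to 4 were -2.27, -2.10, -1.48 and -1.89 in untreated tumours and -2.69, -1.99, -2.67 and -2.63 after 4 days. They were -2.84, -1.98, -2.86 and -2.26 after 60 days and -2.18, -2.30, -2.39 and -2.30 in resistant tumours. Apart from replicate 2, the 4-day tumours lay below every untreated tumour, and the 60-day group split into 2 low and 2 higher tumours. The resistant tumours were the tightest group, at a mean of -2.29 ± 0.09 (SD, n = 4). The difference from untreated was -0.56 ± 0.22 after 4 days (95% interval -1.03 to -0.09, adjusted p = 0.226, limma) and -0.55 ± 0.22 after 60 days (-1.02 to -0.08, adjusted p = 0.206). It was -0.36 ± 0.22 in resistant tumours (adjusted p = 0.657). The 4-day difference was -0.96 on slide 1 and -0.16 on slide 2, and the 60-day difference was -0.87 and -0.23. With the processed signals of Feature Extraction the differences were -1.18 after 4 days and -1.09 after 60 days, and neither passed the threshold.

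Ctla4 encodes CTLA-4, found on activated and regulatory T cells, and its probe (chromosome 1, 60971801 to 60971860, mm9, plus strand) did not pass the filter on dim probes. It was above background on 2 of 16 arrays, with a log2 ratio of 1.99 in 4-day replicate 2 and of 0.82 in untreated replicate 3. The other 14 tumours lay between -0.03 and 0.44 and were not above background. The Cy3 signal of the reference was above background on 4-day replicate 2 only, although the reference was the same RNA on every array. Tigit encodes a receptor that competes with CD226 for the ligand PVR, and its probe (chromosome 16, 43649114 to 43649173, mm9, minus strand) was above background on 2 of 16 arrays as well. Those were untreated replicate 3, at 0.38, and 4-day replicate 3, at -0.37. No comparison between groups was made for Ctla4 or Tigit, because their level was not detectable in most tumours at this signal.

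**Figure D2:**
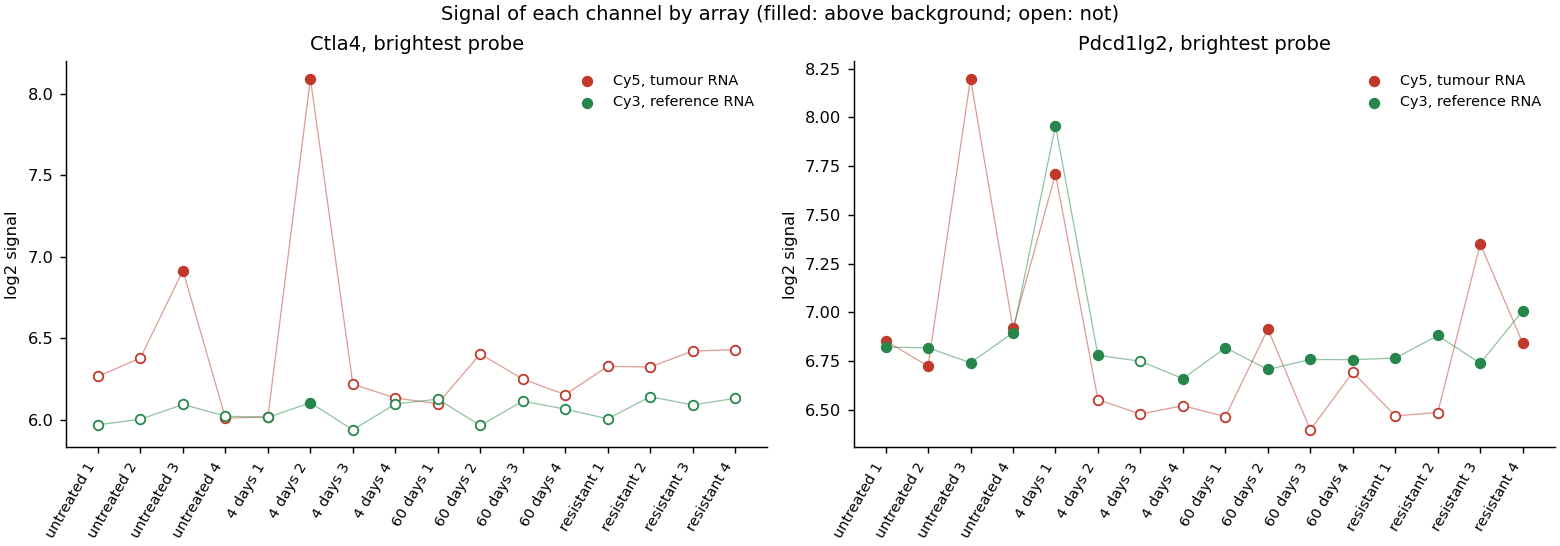
The plot of both channels by array shows the log2 signal (vertical axis) of Ctla4 and of the brighter Pdcd1lg2 probe in the tumour RNA (Cy5, red) and the reference RNA (Cy3, green) on 16 arrays (horizontal axis), filled where above background. Ctla4 stands out on 4-day replicate 2, and Pdcd1lg2 is high in both channels on 4-day replicate 1, where Cy3 reached 7.96.

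Lag3 encodes LAG-3, a receptor for MHC class II. Its probe lies on chromosome 6, minus strand, where its 60 bases span 124854570 to 124854866 (mm9), 297 bases of genome. It was above background on 13 arrays, all 4 untreated and 3 of each other group. Its Cy3 reference signal was above background on 5 of 16 arrays, so the ratio rests on a reference near background. Its log2 ratios in replicates 1 to 4 were 0.74, 1.04, 0.83 and 0.47 in untreated tumours and 0.72, 1.38, 0.79 and 0.01 after 4 days. They were 1.06, 0.54, 0.14 and 0.53 after 60 days and 0.52, 0.40, 0.64 and 0.90 in resistant tumours. These groups overlapped throughout, with means of 0.77 ± 0.24, 0.72 ± 0.56, 0.57 ± 0.38 and 0.61 ± 0.21 (SD, n = 4) in the same order. The differences from untreated were -0.05 ± 0.25, -0.20 ± 0.25 and -0.16 ± 0.25, all smaller than their errors. The 95% interval at 4 days ran from -0.58 to 0.49, so differences within that range, either way, remain compatible with these 4 arrays a group.

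Havcr2 encodes TIM-3, carried by exhausted T cells and also by macrophages and dendritic cells, and was above background on all 16 arrays (chromosome 11, 46294675 to 46294734, mm9, plus strand). Its log2 ratios in replicates 1 to 4 were 1.23, 1.40, 2.27 and 0.96 in untreated tumours and 0.87, 1.66, 0.81 and 0.92 after 4 days. They were 1.19, 1.97, 0.91 and 0.89 after 60 days and 2.79, 1.58, 1.60 and 0.90 in resistant tumours. The Cy3 reference signal of Havcr2 was above background on 13 arrays, but on 1 of the 4 arrays of the 4-day group. Each group held a single tumour well above its others, which was replicate 3 in the untreated group, replicate 2 in both treated groups and replicate 1 in the resistant group. The means in ascending order were 1.07 ± 0.40 after 4 days, 1.24 ± 0.51 after 60 days, 1.47 ± 0.57 untreated and 1.72 ± 0.78 resistant (SD, n = 4), and neighbours did not differ beyond their spread. The difference of resistant from 4-day tumours, 0.65 ± 0.38, was the widest of the gene (95% interval -0.16 to 1.47, adjusted p = 0.713, limma) and was 0.29 without resistant replicate 1. That difference was 0.39 on slide 1 and 0.91 on slide 2. Resistant tumours differed from untreated tumours by 0.25 ± 0.38 with that tumour and by -0.11 without it.

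Cd80 encodes a ligand of both CD28 and CTLA-4 on antigen-presenting cells. Its main probe (chromosome 16, 38486772 to 38486831, mm9, plus strand) was above background on all 16 arrays. The log2 ratios in replicates 1 to 4 were 0.90, 0.79, 0.23 and 0.36 in untreated tumours and 0.29, 0.61, 0.91 and -0.17 after 4 days. They were 0.22, 0.43, -0.16 and -0.09 after 60 days and 1.70, 1.01, 0.16 and 0.12 in resistant tumours. The 60-day tumours were low as a group, and the resistant group split into a pair of tumours at 1.70 and 1.01 and a pair at 0.16 and 0.12. The split followed the slides, and equally the title codes, since each pair of resistant tumours shares a code and a slide. Untreated tumours differed between the slides in the same way, at 0.90 and 0.79 on slide 2 and 0.23 and 0.36 on slide 1. The difference of resistant from 60-day tumours of 0.65 ± 0.32 (95% interval -0.05 to 1.34, adjusted p = 0.868, limma) was 0.26 on slide 1 and 1.03 on slide 2. Without resistant replicate 1 it was 0.33. The resistant mean of 0.75 ± 0.76 and the untreated mean of 0.57 ± 0.32 (SD, n = 4) differed by 0.17 ± 0.32.

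A second Cd80 probe, whose 60 bases from the array files are shown because it is the other view of the transcript, lies about 7 kilobases upstream on the genome (chromosome 16, 38479343 to 38479402, mm9).
Cd80 probe 2: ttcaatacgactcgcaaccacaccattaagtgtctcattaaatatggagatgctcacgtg

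That Cd80 probe was dim and passed the filter through 3 untreated arrays and resistant replicate 1. It was above background on 0 of the 8 arrays of treated tumours, which have only an upper bound there. Its group means were 0.10 ± 0.04 untreated, -0.35 ± 0.13 after 4 days, -0.46 ± 0.29 after 60 days and -0.04 ± 0.20 resistant (SD, n = 4). No order of the groups is read from this dim Cd80 probe.

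Cd86 encodes the other ligand shared by CD28 and CTLA-4, and its main probe (chromosome 16, 36603961 to 36604020, mm9, minus strand) was above background on all 16 arrays. Its log2 ratios in replicates 1 to 4 were 1.46, 1.22, 1.98 and 0.97 in untreated tumours and 0.58, 0.99, 1.03 and 0.75 after 4 days. They were 0.63, 1.43, 0.41 and 0.84 after 60 days and 1.22, 0.67, 1.39 and 0.56 in resistant tumours. Only untreated replicate 4 reached into the 4-day range, and 1 of the 60-day tumours lay among the untreated ones. The difference from untreated was -0.57 ± 0.26 after 4 days (95% interval -1.12 to -0.02, adjusted p = 0.28, limma), -0.58 ± 0.26 after 60 days (-1.13 to -0.03, adjusted p = 0.241) and -0.45 ± 0.26 in resistant tumours (adjusted p = 0.624). The 4-day difference was -0.59 on slide 1 and -0.56 on slide 2, and without untreated replicate 3 it was -0.38. The 60-day difference was -0.85 on slide 1 and -0.31 on slide 2, and -0.39 without untreated replicate 3. Resistant tumours differed from 4-day tumours by 0.12 ± 0.26. A second Cd86 probe was above background on 0 of 16 arrays and gives no level.

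Lgals9 encodes galectin-9, a secreted lectin that binds sugar chains of cell surface proteins, and came nearest to the threshold of the 8 genes tested. Its probe (chromosome 11, 78776922 to 78776981, mm9, minus strand) was above background on all 16 arrays, and its 60 bases from the array files are shown because the result nearest to the threshold rests on this single probe.
Lgals9 probe: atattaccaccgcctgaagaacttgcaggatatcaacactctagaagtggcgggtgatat

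The log2 ratios of Lgals9 in replicates 1 to 4 were -0.06, -0.26, -0.13 and -0.32 in untreated tumours and -0.85, -0.80, -0.32 and -1.0 after 4 days. They were -0.75, -0.62, -1.20 and -0.68 after 60 days and -0.17, -0.59, -0.48 and -0.74 in resistant tumours. All 4 of the 60-day tumours lay below all 4 untreated ones, 3 of the 4-day tumours did, and the resistant tumours spread from the untreated to the treated range. In ascending order the means were -0.81 ± 0.27 after 60 days, -0.74 ± 0.30 after 4 days, -0.49 ± 0.24 resistant and -0.19 ± 0.12 untreated (SD, n = 4). The difference from untreated was -0.62 ± 0.17 after 60 days, a 1.54-fold lower ratio (95% interval -0.98 to -0.26, adjusted p = 0.0863, limma). It was -0.55 ± 0.17 after 4 days (1.46-fold lower, 95% interval -0.91 to -0.19, adjusted p = 0.127) and -0.30 ± 0.17 in resistant tumours (1.23-fold lower, -0.66 to 0.06, adjusted p = 0.61).

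The Lgals9 differences kept their sign on each slide, at -0.71 and -0.53 after 60 days and -0.44 and -0.66 after 4 days for slides 1 and 2. The adjusted p for Lgals9 depended on the setting, from 0.0165 to 1 after 4 days and from 0.00842 to 0.898 after 60 days, the highest with median centring. With array weights it was 0.0165 after 4 days and 0.00842 after 60 days, and with only the 60-day and untreated groups in the model it was 0.0455. Leaving out 4-day replicate 3 gave 0.0436 after 4 days, and leaving out resistant replicate 1 gave 0.0405 after 60 days. Leaving out 4-day replicate 4 gave 0.326 after 4 days, and leaving out 60-day replicate 3 gave 0.213 after 60 days. Resistant tumours differed from 60-day tumours by 0.32 ± 0.17 (95% interval -0.04 to 0.68, adjusted p = 0.88, limma) and from 4-day tumours by 0.25 ± 0.17 (-0.11 to 0.61, adjusted p = 0.774).

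**Figure D3:**
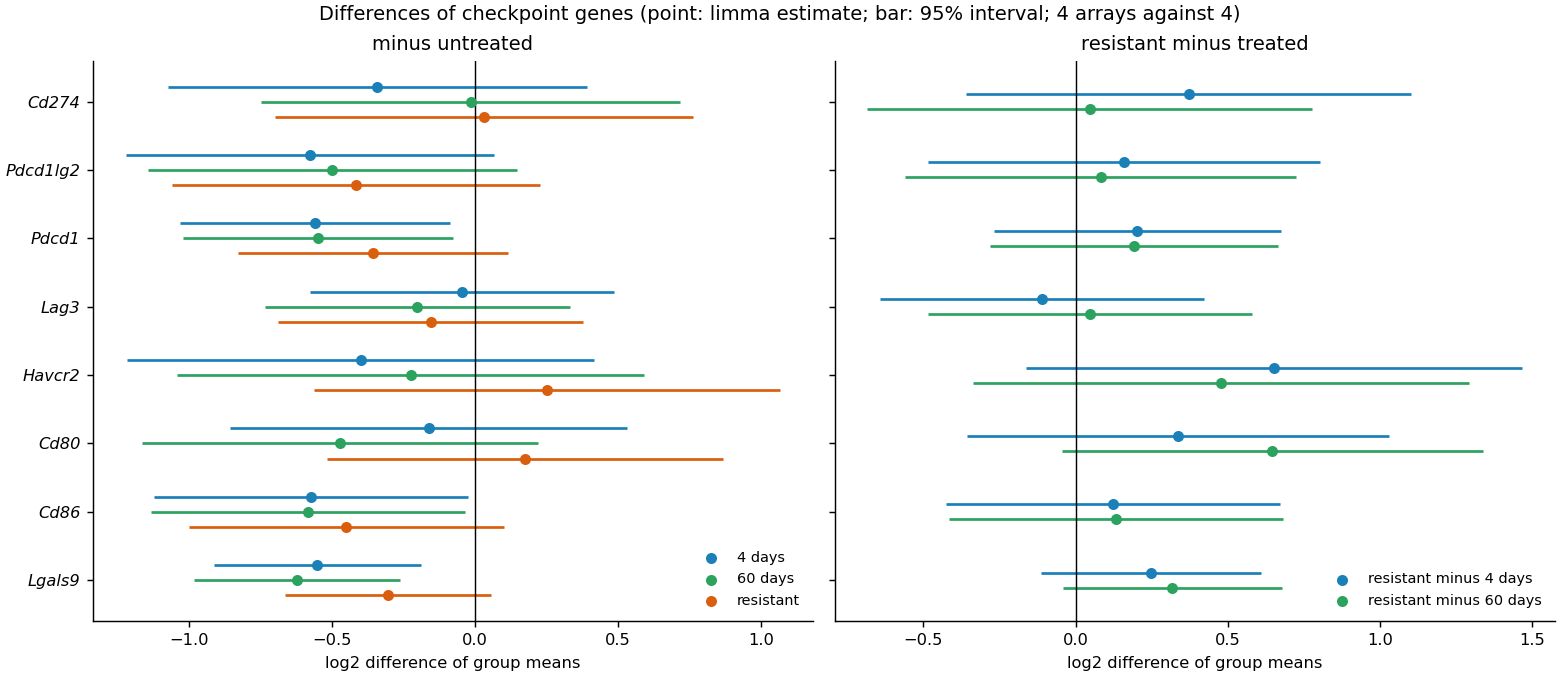
Points give the log2 difference of group means (horizontal axis) for the 8 tested genes (vertical axis), with bars for the 95% interval from limma, for treated and resistant against untreated tumours on the left and resistant against treated tumours on the right. The intervals of Lgals9, Pdcd1 and Cd86 lie below 0 at 4 and 60 days, with Lgals9 at -0.55 and -0.62, and every interval on the right includes 0.

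For the 8 genes tested, the difference of 4-day from untreated tumours was negative in 8 and positive in 0, with a median of -0.47. Over all genes tested the median was -0.01 and 51.3% of differences were negative. Without untreated replicate 3 it was negative in 7 of the 8 genes, with Cd274 positive, and the median was -0.24. An adjusted p under 0.05 was reached by 0 of the 8, and by 1.34% of all genes (295, of which 91 were higher and 204 lower), so 0 of 8 does not set these genes apart from the background. An unadjusted p under 0.05 was found for 3 of the 8 (Lgals9, Pdcd1 and Cd86) and for 3676 of 21985 genes. The groups did not overlap for 1 gene, Pdcd1lg2, against 7% of all genes. Its probe was above background on 4 untreated arrays but on 1 of the 4-day arrays, where its Cy3 signal was also high. That separation is therefore not read as a measured difference, although Pdcd1lg2 stays counted among the 8 genes. The difference of 60-day from untreated tumours was also negative in 8 of 8, with a median of -0.49 against 0.00 over all genes, 49.8% of which had negative differences. Without untreated replicate 3 it was negative in 6 of the 8, with Cd274 (0.35) and Havcr2 (0.04) positive, and the median was -0.29. The count passing was again 0 of 8, against 0.819% of all genes, with an unadjusted p under 0.05 for the same 3 genes and for 4110 of 21985. The groups did not overlap for Lgals9 alone, against 13.8% of all genes. The 8 genes come from the same arrays and several from the same cells, and both comparisons share the 4 untreated tumours, so neither the 8 genes nor the 2 comparisons are independent.

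Resistant tumours had a negative difference from untreated tumours in 5 of the 8 genes, with a median of -0.23. Havcr2 (0.25), Cd80 (0.17) and Cd274 (0.03) were the positive ones. Without untreated replicate 3 the median was -0.09, and without resistant replicate 1 the difference was negative in 7 of the 8, with a median of -0.24. The count passing was 0 of 8, against 0.0182% of all genes, and the groups overlapped for every one of the 8, against 4.28% of all genes without overlap. Resistant minus 4-day differences were positive in 7 of 8 genes (median 0.23), with Lag3 at -0.11 the exception, and resistant minus 60-day differences were positive in 8 of 8 (median 0.16). Neither comparison had a checkpoint gene past the threshold, and the background was 0.00455% and 0% of all genes. Non-overlapping groups were found for 0 of the 8 genes in both, against 2.77% and 3.63% of all genes. Between the treated groups, 4 of the 8 genes were at a lower and 4 at a higher mean at 60 days than at 4 days, with a smallest adjusted p of 1. There the background was 0% of genes past the threshold and 1.68% without overlap, and 0 of the 8 genes met either. In these last 4 comparisons no checkpoint gene had an unadjusted p under 0.05 by limma, against 2094, 1801, 1247 and 412 of all genes.

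Single tumours held many of the extreme values. Untreated replicate 3 had the highest ratio of all 16 tumours for Cd274 (1.11), Pdcd1lg2 (1.46), Pdcd1 (-1.48), Cd86 (1.98) and the dim Tigit (0.38). The same tumour had the highest mean ratio of the 16 interferon response genes (1.98, against 0.31 to 1.49 elsewhere) and the highest Irf1 (1.94), Foxp3 (1.19) and Cd8a (1.37, a gene above background on 4 arrays). Its Cd3e (-0.67) and Cd4 (0.22) lay below the medians of the 16 tumours (-0.15 and 0.52). It also had the highest mean of the T cell, regulatory T cell, dendritic cell and cytotoxic cell lists. Resistant replicate 1 had the highest ratio for Havcr2 (2.79) and Cd80 (1.70), with the highest mean of the macrophage and monocyte list (2.31), the highest Cd68 (0.36), and the lowest mean of the keratinocyte list (1.21). The part of these cell type markers in the checkpoint values was not tested.

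The mean ratio of the interferon response list (16 of 16 genes measured) ranged from 0.93 to 1.98 in untreated tumours, 0.31 to 1.30 after 4 days, 0.44 to 1.27 after 60 days and 0.50 to 1.20 in resistant tumours. Of its genes 15 of 16 had negative differences at 4 and at 60 days and 14 of 16 in resistant tumours (medians -0.67, -0.62 and -0.57), and 0 passed the threshold. The macrophage and monocyte list (11 of 13 measured) ranged from 1.18 to 1.94 untreated, 0.50 to 1.72 at 4 days, 0.71 to 1.32 at 60 days and 0.91 to 2.31 in resistant tumours. Of its 11 genes, 10 had negative differences at 4 days and 9 at 60 days (medians -0.43 and -0.55), against 5 in resistant tumours (median 0.15), and 0 passed the threshold. The T cell list (12 of 14 measured) ranged from -0.59 to 0.30, -0.93 to 0.01, -0.76 to 0.20 and -0.81 to -0.26 in the same order, again with 0 genes past the threshold. Of its 12 genes, 9 had negative differences at 4 days, 6 at 60 days and 10 in resistant tumours (medians -0.17, 0.02 and -0.35). The regulatory T cell list (6 of 7 measured) ranged from 0.28 to 1.26, 0.19 to 0.85, 0.45 to 1.16 and 0.19 to 0.94. Of its 6 genes, 4, 3 and 4 had negative differences from untreated (medians -0.15, -0.01 and -0.16). The dendritic cell list (9 of 11 measured) ranged from 1.04 to 1.63, 0.57 to 1.22, 0.62 to 1.48 and 0.47 to 1.33, with negative differences from untreated in 8 of 9 genes at each time (medians -0.36, -0.37 and -0.35). Neither of these last lists had a gene past the threshold. The ranges of all 5 lists overlap between groups. Their part in the lower means of Lgals9, Pdcd1 and Cd86 was not tested.

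**Figure D4:**
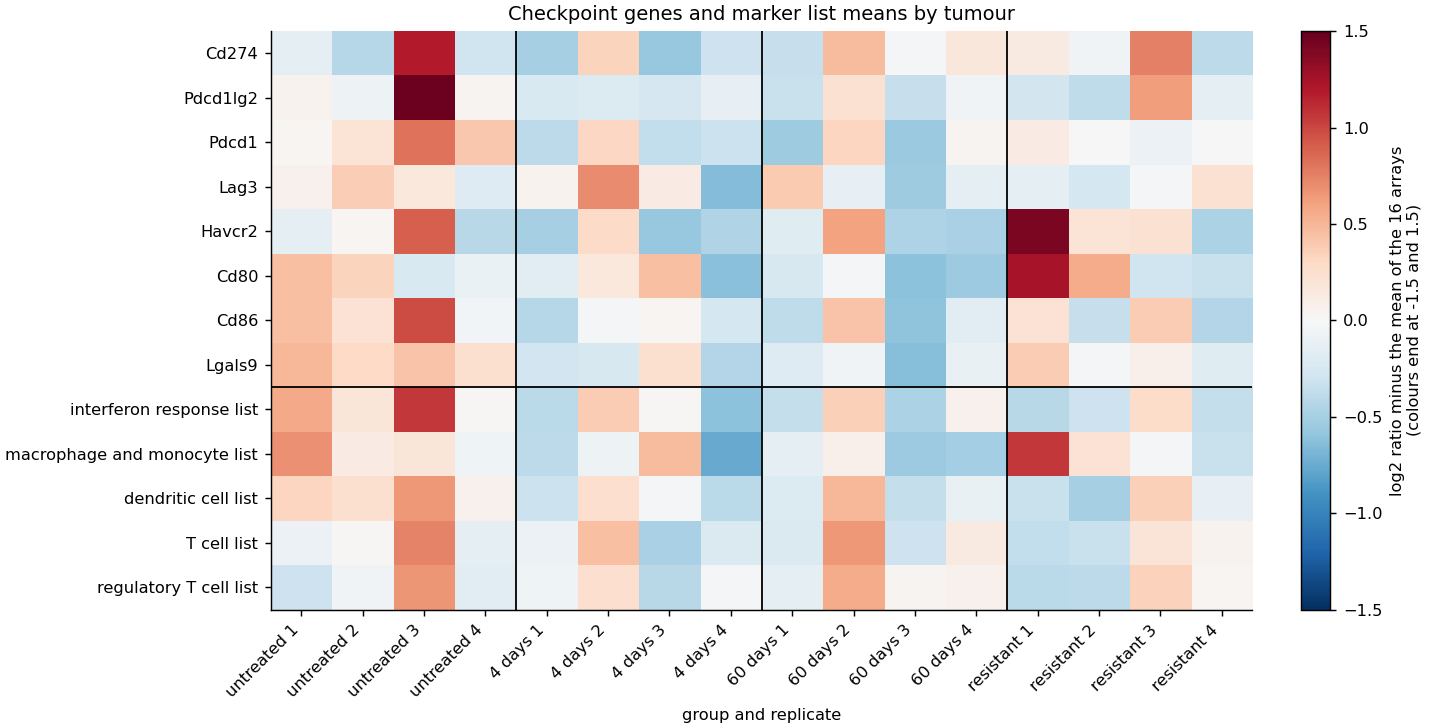
Each row is a checkpoint gene or the mean of a marker list, each column 1 of 16 tumours by group and replicate, and the colour is the log2 ratio minus the row's mean over the 16 arrays, with colours ending at -1.5 and 1.5. Untreated replicate 3 is red for Cd274, Pdcd1lg2, Pdcd1, Cd86 and the interferon and T cell lists, and resistant replicate 1 is red for Havcr2, Cd80 and the macrophage list.

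Pairs of genes joined by receptor and ligand, by cell type or by interferon were compared across the 16 tumours. Of 16 such pairs, 10 could be computed, and the other 6 held a gene above background on fewer than 8 arrays (Ctla4, Tigit or Cd8a). Lgals9 and Irf1, which encodes an interferon-induced transcription factor, gave r = 0.756 (permutation p = 0.00071, adjusted over 10 pairs 0.0041) and rho = 0.741 (permutation p = 0.00152, adjusted 0.0152). For this pair r was 0.677 without the 2 tumours of most extreme Lgals9, 0.867 and 0.613 within slides 1 and 2, and 0.546 after group means were removed. The pair did not pass on slide 2 (adjusted exact permutation p = 0.356, 8 arrays) or after group means were removed (adjusted permutation p = 0.0718). Cd274 and Pdcd1lg2 gave r = 0.798 (permutation p = 0.00082, adjusted 0.0041), but rho = 0.45 (permutation p = 0.0821, adjusted 0.12) and r = 0.296 without the 2 tumours of most extreme Cd274, so the relation rests on those tumours. Within slides 1 and 2 it was 0.908 and 0.383. Pdcd1lg2 was above background on 8 of the 16 arrays, so its other values, in this pair and with Csf1r, do not measure a level. Cd274 and Irf1 gave r = 0.574 (permutation p = 0.0196, adjusted 0.049) and rho = 0.453 (permutation p = 0.081, adjusted 0.12). Without the 2 extreme tumours their r was 0.254, so this relation rests on them too, and within the slides it was 0.726 and 0.293.

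Cd274 and Pdcd1, ligand and receptor, gave r = 0.609 (permutation p = 0.0124, adjusted 0.0414) and rho = 0.497 (permutation p = 0.052, adjusted 0.12). Their r was 0.492 without the 2 extreme tumours and 0.583 and 0.714 within the slides. Cd86 and the macrophage receptor gene Csf1r passed by rank only, with rho = 0.65 (permutation p = 0.00808, adjusted 0.0404) and r = 0.464 (permutation p = 0.0715, adjusted 0.119). Their r was 0.546 without the 2 extreme tumours and 0.381 and 0.649 within the slides. Havcr2 and its ligand gene Lgals9 (r = 0.477, permutation p = 0.0614, adjusted 0.119) did not pass. Cd80 and Cd86, which encode ligands of the same receptors, did not pass either (r = 0.3, permutation p = 0.26, adjusted 0.324). The remaining 3 pairs were Pdcd1 with Lag3 (r = 0.268), Pdcd1lg2 with Csf1r (r = -0.0235) and Havcr2 with Csf1r (r = 0.406), none of which passed (permutation p = 0.315, 0.927 and 0.118, adjusted 0.35, 0.927 and 0.168). For the 5 pairs that did not pass, rho lay between 0.0676 and 0.468, with adjusted permutation p from 0.12 to 0.805.

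**Figure D5:**
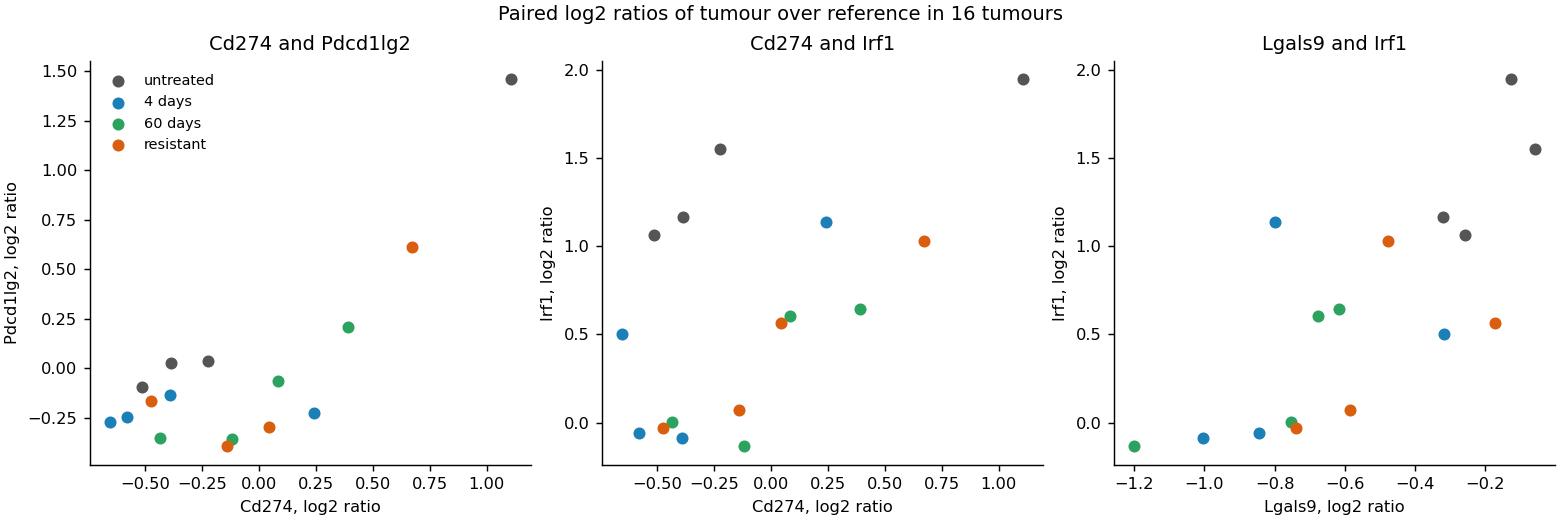
Each point is 1 of 16 tumours, coloured by group, and the axes are the log2 ratios of the named genes. Lgals9 and Irf1 spread along a diagonal (r = 0.756). Untreated replicate 3 lies at the upper right of the panels of Cd274 with Pdcd1lg2 and with Irf1. Without the 2 tumours of most extreme Cd274, r was 0.296 and 0.254 in those panels.

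The tested genes with the most similar pattern over the 16 tumours, by Pearson correlation, differed from member to member. Cd80 lay closest to the complement receptor genes C5ar1 (r = 0.966) and C5ar2 (r = 0.964) and to Gda (r = 0.957). Cd86 lay closest to Serpina3g (r = 0.937), Bcl2a1c (r = 0.935) and Irf8 (r = 0.929), which encodes a transcription factor of myeloid cells. Lgals9 lay closest to the Fc receptor gene Fcgr1 (r = 0.939), Sting1 (r = 0.92) and B4galt5 (r = 0.913). Cd274 was nearest to Fut7 (r = 0.932), Ly6g (r = 0.914) and Trpv2 (r = 0.906). Pdcd1lg2 was near the guanylate-binding protein gene Gbp8 (r = 0.935, rho = 0.8) and Lta (r = 0.927, rho = 0.715), but was above background on only 8 of the 16 arrays. Pdcd1 was near Atp10a (r = 0.874), Ubd (r = 0.852) and Stat4 (r = 0.852). Havcr2 was near Selplg (r = 0.92) and Nfkbid (r = 0.911), and Lag3 near Fbxo27 (r = 0.797). These are the extremes of 21985 genes over shared arrays and are given as a description.

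The promoters of Lgals9 and Cd274 are shown because their transcripts were set against Irf1. The RefSeq table (build GRCm38.p6) matched 8 of the 10 genes, and Lag3 and Cd86 were not matched. Each sequence gives the 100 bases before the transcript start, on the gene's strand, with the only match to an interferon regulatory factor motif in these stretches in capitals.
Lgals9 promoter, chr11:78984925-78985024, minus strand: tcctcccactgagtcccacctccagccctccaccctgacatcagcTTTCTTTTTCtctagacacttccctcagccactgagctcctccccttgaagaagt
Cd274 promoter, chr19:29367338-29367437, plus strand: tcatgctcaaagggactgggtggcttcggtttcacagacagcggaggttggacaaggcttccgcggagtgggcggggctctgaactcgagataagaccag

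In windows from 250 bases before to 50 after the start, searched on both strands, the interferon regulatory factor motif (GAAA, 2 free bases, GAAA) was found in 1 of the 8 promoters, that of Lgals9, and in 3.44% of 32851 promoters. Lgals9 held it at 55 bases before the start (in capitals above) and at 15 bases after it. The signal transducer motif TTCNNNGAA and the NF-kappaB motif (GGG, 3 free bases, TTCC) were found in 0 of the 8, against 8.3% and 5.56% of all promoters. The pattern TGANTCA, a loose form of the AP-1 motif with a free middle base, was found in 2 of the 8, Havcr2 and Cd80, against 7.81%. Both matches read TGATTCA, and no AP-1 site is read from them. The motifs do not overlap one another in these promoters, and a match describes letters in the window and no binding.

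Of 39 other genes of costimulation and checkpoint signalling, 29 were measured. Negative differences from untreated were seen in 22 of them after 4 days, 21 after 60 days and 19 in resistant tumours, with medians of -0.15, -0.24 and -0.14. A single gene of the list passed the threshold in any comparison. Lgals3 encodes galectin-3, which binds LAG-3 among many other glycoproteins, and had log2 ratios of -0.63, -0.63, 0.56 and -0.78 in untreated tumours and 0.92, 1.48, 1.00 and 0.97 after 60 days. All 60-day tumours lay above all untreated ones, and Lgals3 rose by 1.46 ± 0.27 (adjusted p = 0.0327, limma). It was at 0.95, 0.96, 0.10 and 1.01 after 4 days (1.12 ± 0.27, adjusted p = 0.057) and at 1.06, 1.15, 0.87 and 0.81 in resistant tumours (1.34 ± 0.27, adjusted p = 0.105).

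The Lgals3 call at 60 days was lost with the deposited value table (adjusted p = 0.0825) and with median centring (0.307). It was also lost within slide 1 (1.09, adjusted p = 0.758) and slide 2 (1.83, adjusted p = 0.103). Leaving out 60-day replicate 1, 2, 3 or 4 gave 0.0633, 0.104, 0.0906 and 0.0694, and leaving out untreated replicate 1, 2 or 4 gave 0.105, 0.116 and 0.115. Without untreated replicate 3 it was 0.00124. The difference was positive, from 1.09 to 1.83, in all these settings. The brightest other genes of the list were Hmgb1 (0.10 ± 0.41 at 60 days), Cd47, which encodes the ligand of SIRP-alpha (-0.13 ± 0.22), Cd244a (-0.27 ± 0.18) and Tnfrsf9, which encodes 4-1BB (-0.22 ± 0.15). None of these 4 passed in any comparison.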

How the data were processed

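A total of 16 arrays were analysed, 4 for each group. Per the file headers, spots were read by Agilent Feature Extraction 10.7.3.1 as intensity values (mean spot and median local background), with the log10 ratio of Cy5 over Cy3 after its own processing and other columns holding flags of 0 or 1. A deposited table gives log2 ratios of tumour over reference; set against the log10 ratios of the same arrays, its slope after changing base was 0.993. Its array medians ran from -0.194 to -0.0638, so it was not centred, and 21.6% to 40.2% of its values per array were absent, for reasons no label states.

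From the intensities, background was removed by normexp with an offset of 50, ratios were normalized by loess within each array (limma 3.58.1 in R 4.3.3), and control spots were dropped. Spots flagged as outliers were treated as missing, which came to 0.55% of values. Probes above background in Cy5 on at least 4 of 16 arrays were kept (30486 of 55681), and RefSeq accessions named 19887 of them. Other probes kept the file's gene name. The brightest probe of a gene was tested. All 4 groups entered 1 limma model, and p-values were adjusted by Benjamini-Hochberg over 21985 genes in each comparison. The same dye held the reference on every array, so dye bias of a probe is not balanced, though it is shared by all groups. The script was tested on simulated data with known changes. Permutation p-values used 100000 resamples, or every order within a slide of 8 arrays, two-sided. The number of arrays limits the precision.

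All 10 members are named. Other checkpoint genes are named if they passed in any comparison, plus the 4 brightest that did not. Defining genes of marker lists and the 3 genes nearest to each tested member in correlation may be named, except unnamed transcripts. Irf1 belongs to the fixed pairs. The members and lists were chosen with earlier results of these data known. Alternatives were slide as a block and within slides, 2 groups only, processed signals, the deposited table, Cy5 alone, median centring, an offset of 16, other filters, the mean over probes, array weights and leaving out each array.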

Additional observations from a re-analysis of the deposited data

Results flagged for a closer look

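Values of 13 probes in 4 groups, 52 groups in all, were searched for a tumour whose gap to the nearest other tumour took more of the group's range than Dixon's critical value for 4 samples allows. Chance gives about 2.6 such groups, and 6 were found. Untreated replicate 3 stood above its group on both overlapping Pdcd1lg2 probes, at 1.4574 and 1.6764. In 4-day replicate 2 the log2 ratio stood above its group for Pdcd1 at -1.9941, for Havcr2 at 1.6623 and for Ctla4 at 1.985. The second Cd86 probe, above background on no array, was lowest in resistant replicate 4 at -0.168.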

How the results depend on the processing

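The count of checkpoint genes past the threshold stayed at 0 under all alternatives in 4 of the 6 comparisons. For 4-day against untreated tumours it was 1 (Lgals9) with array weights, and leaving out single arrays gave 0 to 1. For 60-day against untreated tumours it was 1 (Lgals9) with only the 2 groups compared and 1 with array weights, and leaving out single arrays gave 0 to 1. Over all genes, the calls ranged from 0 to 3953, 0 to 4832 and 0 to 913 for 4-day, 60-day and resistant against untreated tumours, and array weights gave the highest count of each. No paired analysis was possible because the labels give the groups no shared replicate numbers. Slide as a block changed no member's call.

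Among the differences followed, signs turned only on those smaller than their errors, except resistant minus 4-day for Cd80, and the cause was not tested. On slide 2 alone the 4-day difference was 0.2022 for Cd274 and 0.1554 for Lag3, and the 60-day difference was 0.3478 for Cd274 and 0.2672 for Havcr2. On slide 1 alone Cd80 was 0.0726 at 4 days, and resistant minus untreated was -0.2604 for Cd274, 0.1178 for Lag3, -0.3631 for Havcr2 and -0.1595 for Cd80. Resistant minus 4-day for Cd80 was -0.2321 there. The 60-day difference of Cd274 was 0.0189 with median centring and 0.2615 with array weights. Resistant minus untreated for Cd274 was -0.015 with Cy5 alone and -0.0295 with median centring, and for Cd80 it was -0.3347 in the deposited table and -0.0916 with array weights. Leaving out single arrays gave, at 4 days, -0.5371 to 0.0296 for Cd274, -0.2623 to 0.1913 for Lag3 and -0.329 to 0.0314 for Cd80. At 60 days it gave -0.1857 to 0.3547 for Cd274 and -0.4694 to 0.0443 for Havcr2. In resistant against untreated tumours it gave -0.1852 to 0.4012 for Cd274, -0.1062 to 0.5224 for Havcr2 and -0.144 to 0.3823 for Cd80. Of the 10 gene pairs, 4 passed by Pearson correlation over 16 tumours, 2 within slide 1, 0 within slide 2, 3 with group means removed (Lgals9 with Irf1 being the pair lost) and 4 with processed signals. With group means removed r was 0.867, 0.688 and 0.807 for Cd274 with Pdcd1lg2, Pdcd1 and Irf1. Each slide has 8 arrays. Pdcd1lg2 with Csf1r turned to 0.129 and 0.161 within the slides. Signal over background limits Ctla4 and Tigit, the treated values of Pdcd1lg2, and the reference channel of Lag3 and of Havcr2 at 4 days.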

Other observations

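Lists of other cell types were measured beside the checkpoint genes. Of 8 melanocyte genes, all measured, 6 had positive differences from untreated tumours after 4 days and 7 after 60 days (median 0.81 at both times), and Mitf passed the threshold after 4 days (0.88 ± 0.20, adjusted p = 0.0459, limma). The Mitf difference stayed positive, from 0.76 to 1.01, and passed under 11 of 29 alternatives. It was lost without 4-day replicate 1, 3 or 4, 60-day replicate 2, 3 or 4, resistant replicate 2, or untreated replicate 1, 2 or 4 (adjusted p from 0.053 to 0.144). The Mitf call was also lost within slide 1 (adjusted p = 0.47, limma) and slide 2 (0.312), with 2 groups only (0.111) and with median centring (0.87). Processed signals, the deposited table, an offset of 16 and no filter on dim probes lost it too (0.0531 to 0.072). Of the NK and cytotoxic cell list 10 of 12 genes were measured, with median differences of -0.45, -0.46 and -0.51 after 4 days, after 60 days and in resistant tumours. In the same order, differences were negative in 6, 7 and 9 of the 10 genes and positive in 4, 3 and 1. In that list 1 gene passed at 4 and at 60 days, lower in both. It is Gzma, which encodes granzyme A and is named here after its values were seen (-1.41 ± 0.28, adjusted p = 0.0305, and -1.48 ± 0.28, adjusted p = 0.0327, limma). Gzma passed under 18 and 17 of 29 alternatives, with adjusted p up to 0.505 and 0.584 within slide 1. It was lost at 4 days without 4-day replicate 1 or 4 (0.09 and 0.0917), and at 60 days without any 1 of the 60-day replicates (0.0572 to 0.106). It was lost at both times without untreated replicate 1, 2 or 4 (0.0698 to 0.0877). The Gzma call was also lost at both times within slide 2 (adjusted p = 0.265 and 0.181, limma) and with median centring (0.332 and 0.252). Processed signals (0.0539 and 0.0636) and the deposited table (0.0531 and 0.0522) lost it at both times too. With 2 groups only it was lost at 4 days (0.106). Among the B and plasma cell (5 of 7 measured), keratinocyte (7 of 7), fibroblast (8 of 8) and endothelial (7 of 7) lists, 0 genes passed against untreated tumours. None of these lists was tested as a set.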
